A study of Mus musculus with 22 samples.

Results

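The genes for 3 interferon receptor chains and for the receptor chain shared by interleukin 10 and the lambda interferons lie side by side on mouse chromosome 16 (Mmu16), and were examined here in Ts66Yah mice together with their partner chain, their kinases and the Mx genes. The 10 genes were chosen by symbol. Of these, 6 are carried by the triplicated segment (Ifnar1, Ifnar2, Ifngr2, Il10rb, Mx1 and Mx2) and 4 lie on other chromosomes (Ifngr1, Jak1, Jak2 and Tyk2), of 55385 genes in the count table. Ts66Yah mice model Down syndrome: an extra, freely segregating minichromosome holds the distal part of Mmu16, from near Mir155 to the telomere. It was derived from the Ts65Dn line by CRISPR/Cas9 deletion of the Mmu17 part of the Ts65Dn minichromosome, and the line goes back to 1 founder. RNA from hippocampus (HIP) and from entorhinal cortex (EC) was sequenced in 6 male Ts66Yah mice and 5 male wild-type (wt) littermates aged 5 to 6 months on the mixed B6C3B background. No treatment was given in the labels, and every mouse contributed 1 library from each region, 22 libraries in all.

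Interferons signal through receptors made of pairs of chains. Type I interferons bind Ifnar1 and Ifnar2, interferon gamma binds Ifngr1 and signals with Ifngr2, and Il10rb is the second chain for interleukin 10, interleukin 22 and the lambda interferons. None of the chains is itself a kinase. Janus kinases are bound to their intracellular parts: Tyk2 to Ifnar1 and Il10rb, Jak1 to Ifnar2 and Ifngr1, and Jak2 to Ifngr2. When ligand brings the chains together, the kinases phosphorylate STAT factors, which then switch on interferon-induced genes, among them the antiviral GTPases Mx1 and Mx2. Because human chromosome 21 carries the same 4 receptor genes and both MX genes, the dosage of this pathway is a long-standing question in Down syndrome.

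In the GRCm38 annotation the 4 receptor genes lay in the same orientation, on the forward strand, within 192.841 kb of chromosome 16 between positions 91372783 and 91565623. Ifnar2 (ENSMUSG00000022971) occupied 91372783 to 91405589 and Il10rb (ENSMUSG00000022969) began 0.574 kb after its end, at 91406164 to 91425834. Ifnar1 (ENSMUSG00000022967) followed 59.4 kb further on, at 91485238 to 91507441, and Ifngr2 (ENSMUSG00000022965) lay 39.6 kb beyond it, at 91547072 to 91565623. The Mx genes stood apart from the receptors, 5881 kb further along the chromosome and still within the segment. Mx1 (ENSMUSG00000000386) was on the reverse strand at 97447035 to 97462907, and Mx2 (ENSMUSG00000023341), which the annotation classes as a polymorphic pseudogene, was on the forward strand at 97535308 to 97560900. The 4 genes with unchanged copy number were on 4 different chromosomes: Ifngr1 (ENSMUSG00000020009) on chromosome 10 at 19591949 to 19610229, Jak1 (ENSMUSG00000028530) on chromosome 4 at 101152367 to 101265282, Jak2 (ENSMUSG00000024789) on chromosome 19 at 29251828 to 29313080, and Tyk2 (ENSMUSG00000032175) on chromosome 9 at 21104068 to 21131243.

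The RefSeq promoter table (GRCm38.p6) held 7 of the 10 genes; Il10rb, Mx1 and Mx2 were not matched. The 250 bases before the RefSeq start are printed for the 3 triplicated receptor chains with an entry, each called higher in Ts66Yah. They are also printed for Ifngr1, the partner of Ifngr2, which is not triplicated and was not called. Capitals mark matches, on either strand, to the STAT motif TTCNNNGAA or to the GC box GGGCGG. Sequences run 5′ to 3′ along the forward strand, which is the strand of all 4 genes, at chr16:91372533-91372782 (Ifnar2), chr16:91484965-91485214 (Ifnar1), chr16:91546809-91547058 (Ifngr2) and chr10:19591699-19591948 (Ifngr1).
Ifnar2: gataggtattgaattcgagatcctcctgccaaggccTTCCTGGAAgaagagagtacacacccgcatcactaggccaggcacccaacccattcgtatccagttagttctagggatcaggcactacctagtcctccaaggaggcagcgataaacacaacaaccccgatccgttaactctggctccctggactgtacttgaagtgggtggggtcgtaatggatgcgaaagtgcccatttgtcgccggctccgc
Ifnar1: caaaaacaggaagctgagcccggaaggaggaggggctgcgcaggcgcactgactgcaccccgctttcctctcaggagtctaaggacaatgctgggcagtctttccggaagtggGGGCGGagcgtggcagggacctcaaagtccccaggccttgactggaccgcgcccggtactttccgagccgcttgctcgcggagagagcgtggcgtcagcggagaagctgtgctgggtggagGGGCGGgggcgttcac
Ifngr2: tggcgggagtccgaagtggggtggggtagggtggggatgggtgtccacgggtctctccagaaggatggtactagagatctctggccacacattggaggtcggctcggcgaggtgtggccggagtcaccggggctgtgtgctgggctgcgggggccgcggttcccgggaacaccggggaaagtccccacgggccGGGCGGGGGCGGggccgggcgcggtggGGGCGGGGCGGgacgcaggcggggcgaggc
Ifngr1: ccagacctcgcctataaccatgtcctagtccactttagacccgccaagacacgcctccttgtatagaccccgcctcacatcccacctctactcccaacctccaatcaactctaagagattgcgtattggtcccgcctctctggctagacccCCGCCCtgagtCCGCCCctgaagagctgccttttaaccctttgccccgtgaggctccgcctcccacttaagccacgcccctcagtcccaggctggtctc

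The 4 upstream windows differed in composition although 3 of the genes are neighbours. Ifngr2 had 74.0% G and C and 25 CG pairs, Ifnar1 65.6% and 19, Ifngr1 59.2% and 11, and Ifnar2 54.0% and 11, against a median of 6 CG pairs over 32851 promoters of the same length. GC boxes, the letters recognised by Sp1-type factors, were found 4 times in Ifngr2 (the last 2 overlapping by 1 base), 2 times in Ifnar1 and 2 times in Ifngr1, and were absent from the Ifnar2 window; 32.7% of all promoters held at least 1. The STAT motif occurred once, in Ifnar2, starting 214 bases before the start; 7.02% of all promoters held it. None of the 7 windows held the interferon-stimulated response element, which 2.98% of all promoters held. These matches describe letters and do not show that a factor binds.

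Depth was even between the groups. Libraries held 25.9 to 50.1 M counts (M for 1e6), with group medians between 33.5 and 36.7 M, and no 2 libraries of a group agreed within sampling noise. All 6 hippocampal marker genes examined were lower in the EC in both genotypes, whereas of 6 cortical markers 5 were higher there and Fezf2 was lower in wt. The EC library of Ts66Yah replicate 4 stood apart from the other 10 EC libraries for interferon-induced genes, as described with the Mx genes. Genotype results that rest on it are given with and without it. The RNA came from whole tissue, in which more cells of a type and more RNA per cell cannot be told apart. Levels are counts per 1e6 counts (CPM) scaled by the trimmed mean of M-values (TMM), fold changes are Ts66Yah over wt from edgeR's quasi-likelihood test, and adjusted p-values are over all genes tested.

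**Figure D1:**
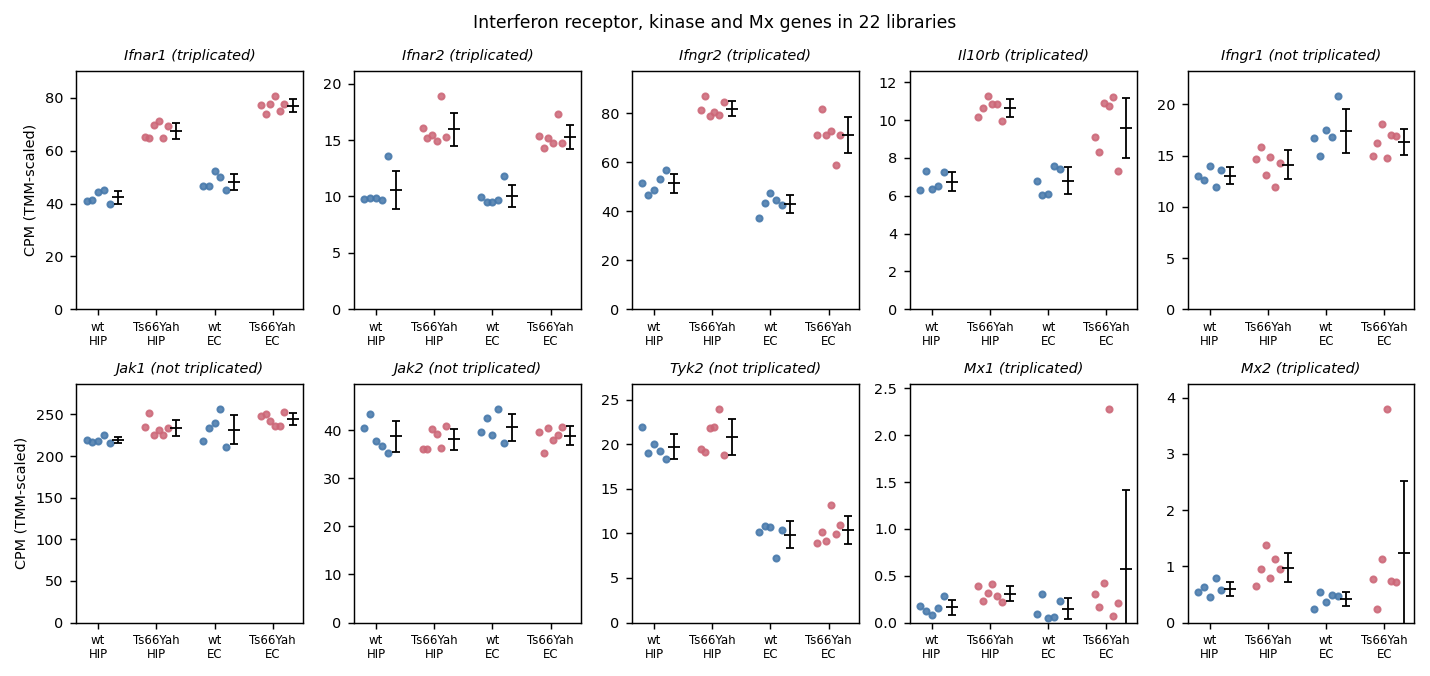
CPM (TMM-scaled, y axis from 0) of the 10 genes in each of the 22 libraries (points, in order of replicate number) for wt (blue) and Ts66Yah (red) HIP and EC, with the mean and SD of each group as a bar (cut at 0 for the Mx genes). Ifnar1, Ifnar2 and Ifngr2 separate by genotype in both regions, Tyk2 separates by region, and the Mx panels are dominated by the EC library of Ts66Yah replicate 4 at 2.28 (Mx1) and 3.79 (Mx2).

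Both chains of the type I interferon receptor were higher in Ts66Yah in both regions, by close to the ratio of gene copies. Ifnar1, the chain that carries Tyk2, had 41.0, 41.3, 44.4, 45.2 and 39.7 CPM in the wt HIP libraries and 64.8 to 71.3 (median 67.3) in the 6 Ts66Yah HIP libraries. In the EC the wt libraries had 46.5, 46.5, 52.4, 50.2 and 45.1 CPM and the Ts66Yah libraries 74.0 to 80.6 (median 77.5). The genotypes did not overlap, and the gap between the highest wt and the lowest Ts66Yah library, 19.6 CPM in HIP and 21.6 in the EC, exceeded the whole spread within either group. Ifnar1 was 1.60-fold higher in HIP (95% interval 1.49 to 1.72, adjusted p = 1.22e-05, edgeR) and 1.60-fold higher in EC (1.47 to 1.74, adjusted p = 9.08e-05). The animal numbers in the titles fall into a lower range (wt replicates 2 and 3, Ts66Yah replicates 5 and 6) and an upper range (wt replicates 4 and 5, Ts66Yah replicates 1 to 4). The number of wt replicate 1 lies in neither, and that mouse was left out of every ratio within a range and of the fit with the range as a block. What the ranges stand for is not stated in the labels. Within the lower and the upper range, the ratios of means were 1.57 and 1.59 in HIP and 1.55 and 1.63 in EC. Ifnar1 had the narrowest intervals of the 6 triplicated genes in both regions.

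Ifnar2, the ligand-binding chain that carries Jak1, had fewer reads than Ifnar1 and a different spread. The wt HIP libraries had 9.79, 9.91, 9.86, 9.71 and 13.6 CPM and the Ts66Yah HIP libraries 14.9 to 18.9 (median 15.4). In the EC, wt had 9.94, 9.47, 9.47, 9.66 and 11.8 CPM and Ts66Yah 14.3 to 17.3 (median 14.99). The groups did not overlap, yet in each of the 4 groups the animal numbered replicate 5 was far above the others, and without those values the libraries of a group lay within 9.71 to 9.91 (wt HIP), 9.47 to 9.94 (wt EC), 14.9 to 16.03 (Ts66Yah HIP) and 14.3 to 15.4 CPM (Ts66Yah EC). Ifnar2 was 1.51-fold higher in HIP (1.30 to 1.75, adjusted p = 0.0107, edgeR) and 1.52-fold higher in EC (1.34 to 1.72, adjusted p = 0.00378). The HIP call did not hold with a block for the 2 ranges of animal numbers, in which wt replicate 1 was left out (log2 fold change 0.57, adjusted p = 0.0653), whereas leaving out both replicate 5 animals, an alternative chosen after seeing the data, gave 0.65 (adjusted p = 0.000385) in HIP and 0.63 (adjusted p = 0.00203) in the EC. Within the lower range of animal numbers (2 mice per genotype) the ratio of means in the HIP was 1.73. Within the upper range (2 wt and 4 Ts66Yah) it was 1.32, and in the EC the ratios were 1.70 and 1.39. Of the far-high mice, Ts66Yah replicate 5 was in the lower range and wt replicate 5 in the upper. Ratios within a range were not computed without these mice.

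The 2 chains of the interferon gamma receptor, one triplicated and one not, parted. Ifngr2, the signalling chain that carries Jak2, had 51.6, 46.6, 48.7, 53.4 and 56.8 CPM in wt HIP and 79.0 to 87.1 (median 81.1) in Ts66Yah HIP. In the EC it had 37.5, 43.4, 47.5, 44.5 and 42.8 CPM in wt and 58.9 to 81.8 (median 71.3) in Ts66Yah. No library of one genotype reached the range of the other, and the lowest Ts66Yah EC library was replicate 5. Ifngr2 was 1.60-fold higher in HIP (1.48 to 1.73, adjusted p = 1.22e-05, edgeR) and 1.65-fold higher in EC (1.46 to 1.87, adjusted p = 0.00077). Its ratios of means within the lower and upper range of animal numbers were 1.72 and 1.49 in HIP and 1.43 and 1.70 in EC. Ifngr1, the ligand-binding chain on chromosome 10, had 13.03, 12.7, 14.003, 11.97 and 13.6 CPM in wt HIP and 11.9 to 15.9 (median 14.4) in Ts66Yah HIP. In the EC its values were 16.8, 14.98, 17.5, 16.9 and 20.8 CPM in wt and 14.8 to 18.04 (median 16.6) in Ts66Yah. The genotypes overlapped in both regions, and the fold was 1.08 in HIP (0.96 to 1.21, adjusted p = 0.632) and 0.94 in EC (0.82 to 1.07, adjusted p = 0.967).

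Il10rb, the shared second chain, was higher in the Ts66Yah HIP, and its EC difference did not pass the test. Its wt HIP libraries had 6.31, 7.33, 6.33, 6.53 and 7.25 CPM and its Ts66Yah HIP libraries 9.97 to 11.3 (median 10.7), without overlap. In the EC, wt had 6.78, 6.03, 6.11, 7.60 and 7.40 CPM and Ts66Yah 7.29 to 11.2 (median 9.92). There, Ts66Yah replicate 6 fell within the wt range and the SD over the Ts66Yah libraries was 1.59, against 0.476 in the HIP. The fold was 1.57 in HIP (1.41 to 1.75, adjusted p = 0.00026, edgeR) and 1.41 in EC (1.17 to 1.71, adjusted p = 0.248). Within the lower and upper range of animal numbers the ratios of means were 1.53 and 1.56 in HIP and 1.52 and 1.30 in EC. The EC difference passed the threshold with DESeq2 (adjusted p = 0.0212) and with all 22 libraries in 1 fit (adjusted p = 0.0152). Exons of Ifnar2 and Il10rb are shared in part with an annotated read-through gene on the same strand, Gm21970, over 9.46% and 14.9% of their exon bases. Gm21970 had no count in any library, and how the authors' counting assigned reads in the shared bases is not stated.

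Of the 6 triplicated genes, 4 were called higher in the Ts66Yah HIP (Ifnar1, Ifnar2, Ifngr2 and Il10rb), where 0.439% of all 18452 genes tested were called higher, and 3 of the 5 tested were called higher in EC (Ifnar1, Ifnar2 and Ifngr2), where the share was 0.272%. None of the 10 was called lower, where 0.152% of genes in HIP and 0.0113% in EC were. Among tested genes of the triplicated segment the shares called higher were 57.4% in HIP and 48.4% in the EC. None of the 4 genes on other chromosomes was called in either region with edgeR, DESeq2 or limma voom; with edgeR, at an unadjusted p under 0.05 only Jak1 in the HIP passed, where 11.9% of all genes tested did (6.25% in EC). Each Ts66Yah library was above each wt library for 4 of the 10 genes in HIP and 3 in EC, against 1.06% and 0.549% of all genes tested. The median log2 fold change was 0.67 over the 6 triplicated genes in HIP and 0.68 over the 5 tested in the EC, against medians over all genes of 4e-05 and -0.0044; this median covers only genes that passed the filter on low counts, which Mx1 did not pass in the EC.

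**Figure D2:**
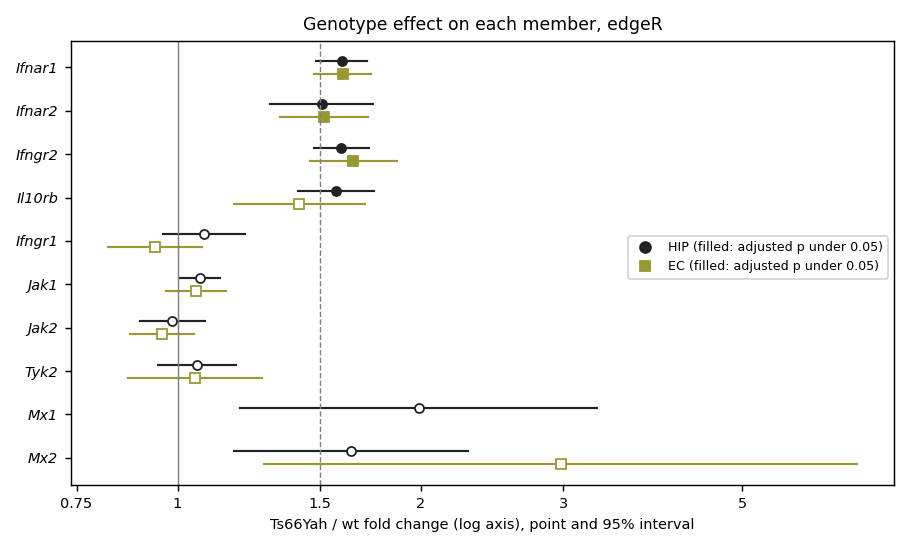
Ts66Yah over wt fold change (x axis, log scale) with its 95% interval for each gene in HIP (black circles) and EC (olive squares) from edgeR, where filled symbols had an adjusted p under 0.05, the solid line is 1 and the dashed line 1.5. The receptor chains of the segment sit at 1.41 to 1.65, the 4 genes on other chromosomes at 0.94 to 1.08, and the intervals of Mx1 and Mx2 are wide; Mx1 was not tested in the EC.

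Whether a triplicated gene could be told apart from its copy number ratio of 1.5 was tested directly. With that ratio as the reference, the excess on the log2 scale in the HIP was 0.09 for Ifnar1 (adjusted p = 0.328), 0.01 for Ifnar2 (0.997), 0.09 for Ifngr2 (0.398), 0.07 for Il10rb (0.735), 0.41 for Mx1 (0.633) and 0.13 for Mx2 (0.799). No member was called in either region, in the HIP where 5.94% of 101 tested segment genes were called and in the EC where 1.08% of 93 were, and at an unadjusted p under 0.05 the count of members was also 0 in both. In the HIP the intervals bound how far a chain could lie from 1.5. They ran from 0.99 to 1.14 times that ratio for Ifnar1, 0.87 to 1.16 for Ifnar2 and 0.98 to 1.15 for Ifngr2. The EC fold intervals given above for Ifnar1, Ifngr2 and Il10rb were wider than those in the HIP, most of all for Il10rb, so the bound is looser there.

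The cluster's neighbours within the segment did not all move alike. Tmem50b, the first tested protein-coding gene beyond Ifngr2 (chromosome 16, 91574503 to 91597800), was 1.46-fold higher in HIP (adjusted p = 0.000182, edgeR) and 1.504-fold higher in EC (adjusted p = 0.00129). Olig1, an oligodendrocyte transcription factor gene before Ifnar2 (91269772 to 91271933) that is triplicated too, had a fold of 0.98 in HIP (0.82 to 1.18, adjusted p = 0.957) and 1.36 in EC (1.03 to 1.80, adjusted p = 0.736). Against the 1.5-fold reference Olig1 was lower in HIP by 0.61 on the log2 scale (adjusted p = 0.00673, over the tested segment genes), and in EC its difference was -0.14 (adjusted p = 0.872). A930006K02Rik, a non-coding transcript between Il10rb and Ifnar1 (91465025 to 91470128), had folds of 1.01 (0.59 to 1.71) and 1.28 (0.82 to 2.02).

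None of the 3 Janus kinases, which are not triplicated, was called between genotypes. Jak1 had 219, 217, 218, 226 and 216 CPM in wt HIP and 226 to 252 (median 233) in Ts66Yah HIP, so that the groups overlapped by less than 0.1 CPM. Its fold was 1.07 in HIP (1.01 to 1.13, unadjusted p = 0.0282, adjusted p = 0.349, edgeR) and 1.05 in EC (0.97 to 1.15, adjusted p = 0.933). Jak1 in EC ranged from 211 to 256 CPM in wt and from 236 to 253 in Ts66Yah. Jak2 ranged from 35.3 to 43.3 CPM in wt HIP, 36.1 to 40.8 in Ts66Yah HIP, 37.4 to 44.3 in wt EC and 35.3 to 40.6 in Ts66Yah EC, and the genotypes overlapped throughout. Tyk2 ranged from 18.3 to 22 CPM in wt HIP, 18.8 to 23.9 in Ts66Yah HIP, 7.23 to 10.8 in wt EC and 8.89 to 13.2 in Ts66Yah EC, overlapping in the same way. Jak2 had folds of 0.99 (0.90 to 1.08) and 0.96 (0.87 to 1.05), and Tyk2 of 1.06 (0.95 to 1.18) and 1.05 (0.87 to 1.27). A change of 1.5-fold lies outside all 6 of these intervals. Tyk2 shares 8.07% of its exon bases with an antisense gene, 1700084C06Rik, which held 0 to 3 counts per library.

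Because a chain works with a partner and a kinase, ratios of counts within each library were compared as well. Such a ratio does not depend on how libraries are scaled, and it can be tested exactly over all ways to split 11 libraries into 5 and 6, for which the smallest two-sided p is 0.00433. Of 14 tests (7 ratios in each region), 9 passed an adjusted p of 0.05. The log2 ratio of Ifngr2 to Ifngr1 was 1.98 ± 0.143 (SD, n = 5) in wt HIP and 2.55 ± 0.112 (n = 6) in Ts66Yah HIP (exact permutation p = 0.00433, adjusted 0.00866). In the EC it was 1.32 ± 0.206 in wt and 2.12 ± 0.212 in Ts66Yah (adjusted exact permutation p = 0.00866). Relative to Ifngr1 RNA, Ifngr2 RNA was 1.48-fold higher in Ts66Yah than in wt in the HIP, and 1.75-fold higher in the EC.

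Receptor chains were also set against the kinases they carry. Ifngr2 relative to Jak2 was 1.62-fold higher in HIP and 1.72-fold higher in the EC, and Ifnar1 relative to Tyk2 was 1.51-fold and 1.52-fold higher (adjusted exact permutation p between 0.00866 and 0.0135). Ifnar2 relative to Jak1 was 1.42-fold and 1.44-fold higher (adjusted exact permutation p = 0.0135 in HIP and 0.00866 in the EC). Il10rb relative to Tyk2 was 1.49-fold higher in HIP (adjusted 0.00866) and 1.33-fold in EC (adjusted 0.121); the EC ratio passed without wt replicate 4, the library with the lowest Tyk2 (adjusted exact permutation p = 0.04). The 2 ratios within which copy number is equal did not pass: Ifnar1 to Ifnar2 differed by 0.07 and 0.08 on the log2 scale (adjusted exact permutation p = 0.615 and 0.556), and Ifngr1 to Jak1 by 0.01 and -0.17 (0.823 and 0.220). A p that misses the threshold does not show that these ratios were equal.

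**Figure D3:**
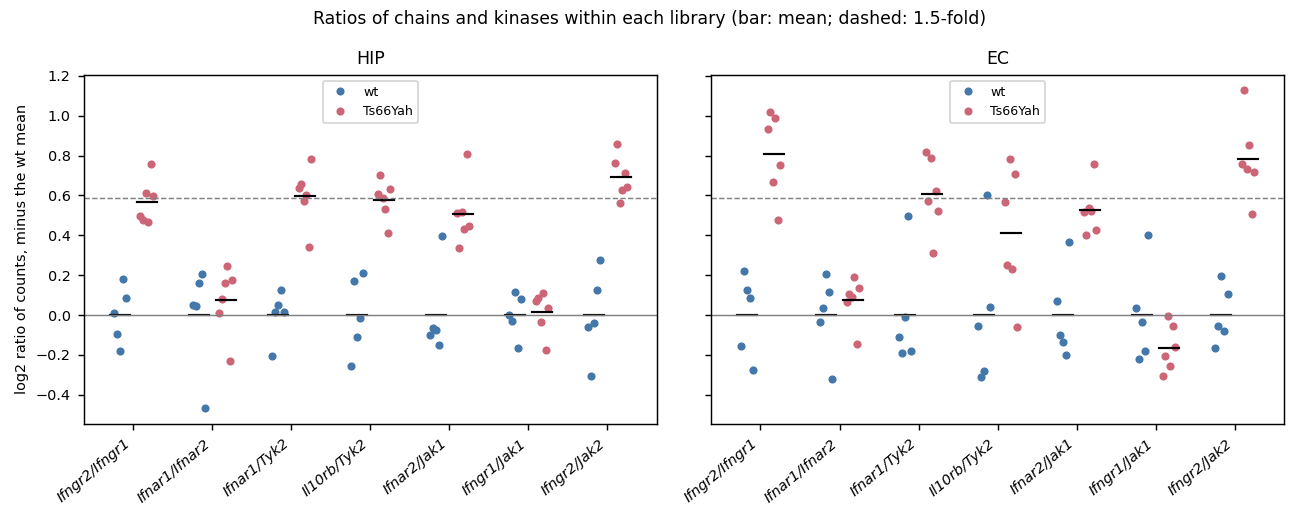
Log2 ratio of counts of 7 gene pairs within each library, minus the wt mean of that pair, in HIP (left) and EC (right); points are libraries (wt blue, Ts66Yah red), short bars are group means and the dashed line is 1.5-fold. The 5 ratios with a triplicated gene over one that is not have Ts66Yah means between 0.41 and 0.81, and the 2 ratios with equal copy number have means between -0.17 and 0.08.

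The Mx genes, interferon targets that are themselves triplicated, had few reads. Laboratory strains such as C57BL/6 are known to carry a defective Mx1 gene, which is still transcribed. Mx1 had 5, 5, 4, 4 and 10 counts in wt HIP and 7 to 17 in Ts66Yah HIP, that is 0.172, 0.122, 0.0784, 0.151 and 0.280 CPM against 0.215 to 0.407 (median 0.301). The groups overlapped through wt replicate 5. Its fold was 1.99 (1.196 to 3.31, unadjusted p = 0.0117, adjusted p = 0.264, edgeR), and in 4 of the 11 fits that left out a library it fell below the filter on low counts. Mx2 had 0.552, 0.633, 0.451, 0.793 and 0.588 CPM in wt HIP and 0.657 to 1.38 (median 0.957) in Ts66Yah HIP, with a fold of 1.64 (1.18 to 2.29, unadjusted p = 0.00663, adjusted p = 0.220).

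In the EC, 1 library held far more Mx reads than any other. Mx1 had 3, 10, 2, 2 and 8 counts in wt and 11, 5, 15, 87, 2 and 6 counts in the 6 Ts66Yah libraries in order of replicate number, and it did not pass the filter there. Mx2 had 0.243, 0.543, 0.360, 0.492 and 0.470 CPM in wt, and 0.237 to 3.79 (median 0.752) in Ts66Yah. Ts66Yah replicate 4 held 2.28 CPM of Mx1 and 3.79 of Mx2, whereas the other 5 Ts66Yah EC libraries held 0.234 ± 0.134 (SD) and 0.719 ± 0.317. The fold of Mx2 was 2.98 (1.28 to 6.93, unadjusted p = 0.0151, adjusted p = 0.646, edgeR). Without Ts66Yah replicate 4 its log2 fold change went from 1.58 to 0.79 (adjusted p = 0.779). Within the lower and upper range of animal numbers the ratios of means in EC were 0.794 and 5.34 for Mx1 and 1.62 and 3.08 for Mx2, with replicate 4 in the upper range; in HIP they were 2.49 and 1.57, and 1.93 and 1.37.

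The same library was high for most other interferon-induced genes. Of 28 such genes listed beside Mx, it was the highest of the 11 EC libraries for 25, with a median of 2.76 times the median of the other 10. Isg15, a ubiquitin-like protein, stood at 9.54 CPM against a highest value of 2.35 elsewhere in the EC, and Ifit1, which binds foreign RNA, at 12.0 against 4.14. B2m, Ifi27 and Igtp were the 3 exceptions. The HIP library of the same mouse was the highest of its region for 5 of the 28 genes, with a median of 1.17 times the others. How often either library was the highest of its region over all genes was not counted. Of the receptor chains in that EC library, Ifnar1 at 80.6 CPM was the highest of the 6 Ts66Yah EC values, while Ifnar2 at 14.7, Ifngr2 at 73.0 and Il10rb at 10.7 lay inside the range of the other 5. Summed markers of the meninges (5 genes) were at 115 CPM in that library, at 114 in the EC library of Ts66Yah replicate 3 and at most 98.6 in the other EC libraries. The EC library of replicate 3 held 0.423 CPM of Mx1 and 1.13 CPM of Mx2. In the HIP library of replicate 4 the sum was 128 CPM against at most 69.9 in the other HIP libraries; the part of these cells in the result was not tested.

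**Figure D4:**
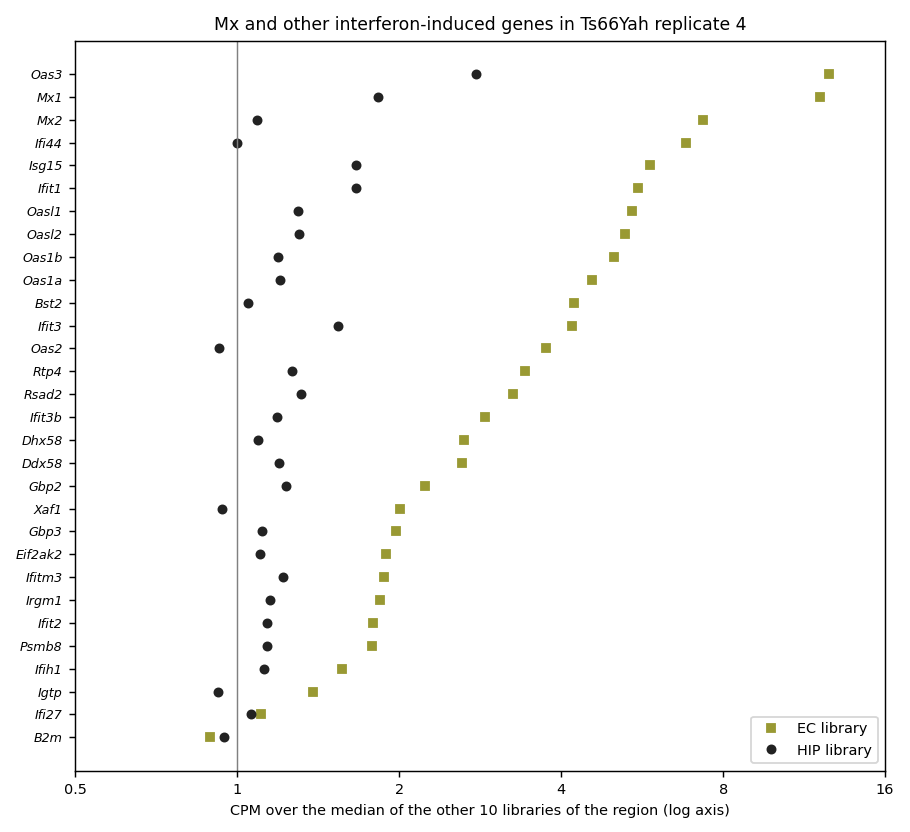
CPM of Mx1, Mx2 and 28 other interferon-induced genes in Ts66Yah replicate 4 divided by the median of the other 10 libraries of the same region (x axis, log scale), for its EC library (olive squares) and its HIP library (black circles). Mx2 is at 7.33 in EC and 1.09 in HIP; Oas3 and Mx1, the points farthest to the right, did not pass the filter in EC and are divided by medians of 0.0458 and 0.188 CPM, so their ratios rest on very low levels.

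The rest of the pathway gave no genotype call in either region. At an unadjusted p under 0.05, 11.9% of all genes tested passed in HIP and 6.25% in EC, against which the unadjusted counts of the lists are to be read. Among 14 STAT and IRF factors, 0 of 13 tested were called in HIP and 0 of 14 in EC with edgeR, with 1 and 2 at an unadjusted p under 0.05; Stat3, which had the most reads, had log2 fold changes of -0.03 (HIP) and -0.11 (EC). Of 12 negative regulators, 11 were tested in each region and 0 were called or passed at an unadjusted p under 0.05; the phosphatase gene Ptpn11 had -0.01 and 0.01. Of the 28 interferon-induced genes beside Mx, 26 were tested in each region, 24 had a positive log2 fold change in HIP and 25 in EC, 0 were called, and 5 and 4 passed unadjusted. Their median log2 fold change was 0.21 in HIP and 0.45 in the EC. Isg15, which had the lowest adjusted p of the list in HIP, had 0.59 there (adjusted p = 0.248, edgeR) and 0.95 in EC (adjusted p = 0.827). B2m, which had the most reads, had 0.06 and 0.00332. Without the EC library of replicate 4, an alternative chosen after seeing the data, 19 of 25 tested interferon-induced genes were positive, 0 were called, 3 passed unadjusted, and the median log2 fold change was 0.09 in place of 0.45. Isg15 then had 0.18 (adjusted p = 0.961). In that fit 0 STAT and IRF factors and 0 negative regulators were called or passed unadjusted. Among wt libraries, replicate 5 had the highest sum over the 28 genes, at 252 CPM in HIP (group median 197) and 243 in EC (group median 209). The lists were not fitted without that mouse.

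No tested receptor chain or kinase outside the 10 genes was called between genotypes. Of 5 other receptor chains, 3 were tested in HIP and 1 in EC, and 0 were called or passed unadjusted; Il10ra, the partner of Il10rb for interleukin 10, had log2 fold changes of 0.03 and 0.04. Jak3 had 0.09 (adjusted p = 0.830) and 0.28 (adjusted p = 0.871). Ligands were almost unseen: of 26 interferon and interleukin 10 family genes none passed the filter, 15 had no count in any library, and the most any of them reached was 14 counts over the 22 libraries. At this depth a difference in ligand RNA was not detectable.

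Set side by side per kb of exon, the 10 genes covered a wide range of levels. In wt HIP, Jak1 was the highest at 30.3 ± 0.53 CPM per kb (SD, n = 5), followed by Ifngr2 at 13.7 ± 1.06, Jak2 at 7.69 ± 0.634, Ifnar1 at 7.12 ± 0.4 and Ifngr1 at 4.58 ± 0.277. Ifnar2 at 3.18 ± 0.509, Tyk2 at 2.87 ± 0.204, Il10rb at 1.77 ± 0.131, Mx2 at 0.167 ± 0.0347 and Mx1 at 0.0425 ± 0.0199 came after. The ranges of Jak2 and Ifnar1 overlapped, as did those of Ifnar2 and Tyk2; the other neighbours in this order did not overlap. In Ts66Yah HIP, Ifnar1 at 11.4 per kb stood clear of Jak2 at 7.58, whereas Ifnar2 (4.79) reached the range of Ifngr1 (4.95) and Il10rb (2.79) that of Tyk2 (3.04). Leaving out the bases shared with Gm21970 raised Il10rb above Tyk2 and Ifnar2 above Ifngr1 in Ts66Yah HIP and left every rank in wt as it was.

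Region was compared within mice. The region fit called 55.5% of 19074 genes in wt and 58% in Ts66Yah, and 4 of the 10 genes in each genotype, a share below that of the whole table. Of all genes, 26.9% were higher and 28.6% lower in the EC of wt, and 28% higher and 30% lower in that of Ts66Yah. Tyk2 was the gene with the largest difference, at 19.7 ± 1.40 CPM in HIP and 9.86 ± 1.49 in the EC of wt (SD, n = 5), a log2 difference of -1.01 in wt (adjusted p = 5.99e-07, edgeR) and -1.01 in Ts66Yah (adjusted p = 1.64e-07). Ifngr1 was higher in the EC, by 0.41 in wt (adjusted p = 0.000832) and 0.21 in Ts66Yah (adjusted p = 0.0281); the Ts66Yah call was lost without Ts66Yah replicate 3, 5 or 6 (adjusted p = 0.1001, 0.111 and 0.0626). Ifnar1 was higher in the EC by 0.19 in both genotypes (adjusted p = 0.000875 and 0.000252), and Ifngr2 lower by 0.25 in wt (adjusted p = 0.00384) and by 0.21 in Ts66Yah (adjusted p = 0.00626). Ifnar2, Il10rb, Jak1, Jak2, Mx1 and Mx2 were not called between regions in either genotype. The log2 difference of Mx2 in Ts66Yah went from 0.04 to -0.51 without replicate 4 (adjusted p = 0.0962).

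Marker genes of cell types moved with region as well. Of 8 microglial markers, summed levels were 310 to 426 CPM in wt HIP and 392 to 523 in wt EC. Summed oligodendrocyte markers (5 genes) were 6359 to 9101 CPM in wt HIP and 1276 to 3082 in wt EC, and choroid plexus markers (6 genes) 113 to 3341 against 10.6 to 44.4. Their part in the region differences was not tested. Between genotypes, summed microglial markers ranged from 310 to 353 CPM in Ts66Yah HIP and 399 to 461.8 in Ts66Yah EC, overlapping wt. Within that list Trem2, a receptor of microglia, was lower in Ts66Yah EC (log2 fold change -0.69, adjusted p = 0.0444, edgeR). In the HIP, Trem2 ranged from 11.6 to 17.2 CPM in wt and from 8.24 to 11.0 in Ts66Yah.

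None of the 10 genes was called for a genotype effect that differed between regions. The difference of the 2 region contrasts was called for 0 of the 10 genes with edgeR, with 0 at an unadjusted p under 0.05 and 0 with DESeq2, and for 0% of all 19074 genes, of which 726 passed unadjusted. For Ifnar1 the difference was 0.01 on the log2 scale (95% interval -0.11 to 0.12), for Ifnar2 0.01 (-0.16 to 0.17) and for Ifngr2 0.04 (-0.14 to 0.23). For Il10rb it was -0.16 (-0.42 to 0.10), so the missing EC call of Il10rb does not by itself show a weaker effect there. For Mx1 it was 0.58 (-1.07 to 2.24).

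The spread among mice of a group was compared between regions. Deviations of log2 CPM from the group mean were correlated between the HIP and EC libraries of the 11 mice, a comparison chosen after seeing the data, for 10 genes. Across all genes tested, the HIP and EC libraries of each mouse deviated together too (r from 0.207 to 0.455). The correlation over mice was not computed for genes outside the 10. For Ifnar1, r was 0.885 and rho 0.891 (permutation p = 0.00026 and 0.0004, adjusted 0.0026 and 0.004), and r was 0.859 without the 2 mice farthest from the median. For Ifnar2, r was 0.965 (permutation p = 0.00096, adjusted 0.0048) and rho 0.673 (permutation p = 0.0283, adjusted 0.101), and r fell to 0.571 without the replicate 5 animals of both genotypes. The relation for Ifnar2 rested on those 2 mice, of which the wt mouse had 1.39 and 1.22 times the mean of the other wt libraries in HIP and EC, and the Ts66Yah mouse 1.23 and 1.17 times that of the other Ts66Yah libraries. In the same 2 mice Ifnar1 stood at 0.92 to 0.97 of the others and Il10rb at 1.03 to 1.21. For the other 8 genes no adjusted permutation p was under 0.05, with r from -0.105 (Ifngr1) to 0.519 (Mx1).

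**Figure D5:**
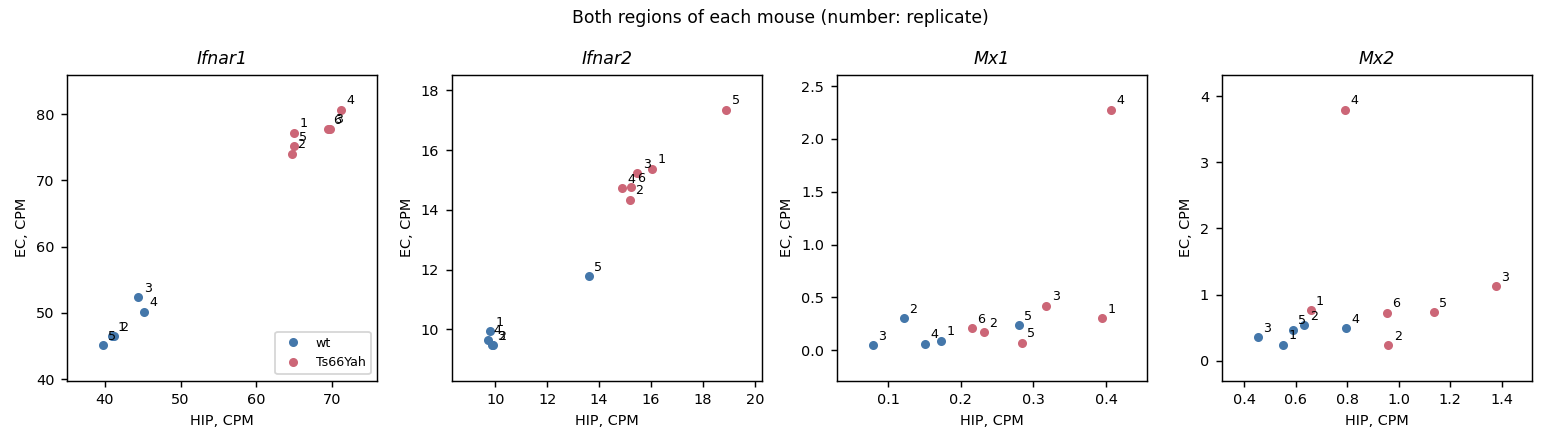
CPM in EC (y axis) against CPM in HIP (x axis) of each of the 11 mice for Ifnar1, Ifnar2, Mx1 and Mx2 (wt blue, Ts66Yah red, replicate number beside each point; axes do not start at 0). Ifnar1 and Ifnar2 form 2 separate genotype groups, replicate 5 is high for Ifnar2 in both genotypes and both regions, and replicate 4 of Ts66Yah is high for Mx1 and Mx2 in the EC.

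The genes with the most similar profile over the 22 libraries were looked up among 14964 genes, as a description in which genotype, region and mouse are all shared. The nearest to Ifnar1 were Wrb (r = 0.977), Gart (0.968) and App (0.967), to Ifnar2 Smim11 (0.934), Hmgn1 (0.901) and Atp5j (0.891), and to Ifngr2 Dop1b (0.913), Pigp (0.912) and Dscam (0.906); all 9 are genes of the triplicated segment. The nearest to Il10rb was Ifnar2 itself (0.884). For Mx1 the nearest were the interferon-induced genes Oasl2 (0.860), Usp18 (0.824) and Ifit1 (0.821), and for Mx2 Dtx3l (0.775), Rnf213 (0.775) and Irf9 (0.758); both profiles contain the high EC library of replicate 4. Tyk2, the member with the region difference, was nearest to Col11a2 (0.977), Ap1g2 (0.976) and Tor1b (0.976).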

How the data were processed

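RNA from the HIP and EC of 11 mice was sequenced as single-end 50-base reads. The authors deposited raw read counts per Ensembl gene, made with Hisat2 on GRCm38 and HTSeq-count; the submitters' processing notes also name bcl2fastq 2.17.1.14, DESeq2 and mm10. The library kit is given differently by the labels and the methods, and the strand setting and the treatment of multi-mapping reads are not given in the sources used here. The deposited tables that hold only the authors' own comparisons were not used.

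Groups came from the labels. Gene names, coordinates and exon lengths came from GENCODE M21 (55144 of 55385 gene IDs matched). Genotype was tested within each region with edgeR 4.0.16 (R 4.3.3; filterByExpr, TMM, quasi-likelihood F test, Benjamini-Hochberg adjustment over all genes tested, threshold 0.05), with 18452 genes in HIP and 17658 in EC. Region was tested over all 22 libraries with the animal as a block, since the titles give both libraries of a mouse the same animal number. Standard errors came from the fitted coefficient and its F statistic. Printed CPM were scaled over all 22 libraries, whereas fold changes came from the fits. The 1.5-fold reference was entered as an offset of the Ts66Yah libraries for segment genes, with adjustment over the tested segment genes. Ratios were tested in scipy 1.17.1 by two-sided exact permutation, adjusted over 14 tests, and the correlations between regions by 100000 permutations, adjusted over 10 genes. The named genes were the 10 members, fixed pathway lists (genes past the threshold or among the most abundant), the cluster's neighbours, and the 3 genes most similar to a member. Ts66Yah replicate 4, Ifit1 and Oas3 were singled out after their values were seen. The members and lists were chosen with earlier results of these data known. The code was tested on simulated data. Alternatives were DESeq2 1.42.0, limma voom (limma 3.58.1), RLE factors, other filters on low counts, all libraries in 1 fit, blocks by replicate number or range of animal numbers, and leaving out each library or animal; leaving out both replicate 5 animals, and the pathway lists without replicate 4, were added after the data were seen. Replicates were separate mice. Depth was 25.9 to 50.1 M counts (M for 1e6) per library.

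HIP and EC libraries of 1 animal deviated together (r from 0.207 to 0.455 over 11 pairs, each over 0.1).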

Additional observations from a re-analysis of the deposited data

Results flagged for a closer look

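Of 40 groups (10 genes in 4 groups) examined for a single library far from the others, 8 values stood out, where chance alone flags about 1 in 20 groups. Of these, 4 belonged to Ifnar2, which was highest in replicate 5 of every group: 13.6 CPM in wt HIP, 11.78 in wt EC, 18.89 in Ts66Yah HIP and 17.35 in Ts66Yah EC. They came from 2 mice, each high in both regions, so the 4 values are not independent. Mx1 at 2.275 CPM and Mx2 at 3.792 CPM were far above the other libraries in Ts66Yah EC replicate 4, the library that was also highest for 25 of 28 other interferon-induced genes. Jak1 was highest in Ts66Yah HIP replicate 2, at 251.8 CPM, and Tyk2 was lowest in wt EC replicate 4, at 7.226 CPM.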

How the results depend on the processing

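The number of members past the threshold stayed within 1.5 times its reported value under every alternative run; without any 1 library it was 4 (HIP) and 3 (EC) for genotype, 3 to 4 for region in Ts66Yah and 4 in wt, and 9 to 10 ratios passed. Replicate numbers did not pair the genotypes in HIP (r -0.007 to 0.0581). In the EC r was 0.0166 to 0.177, and 2 of 5 pairs (replicates 1 and 5) were over 0.1, the level set for pairing. Pairing in the EC is therefore not settled. With the replicate block the genotype counts were 4 and 3, as without it. Without the animal as a block 4 members were called for region in each genotype. The block by animal-number range, which leaves out wt replicate 1, ended 1 call (Ifnar2 in HIP, given above). Reversals concerned differences that were not called: genotype of Jak2 in HIP with that block (0.014), region of Mx2 in Ts66Yah with DESeq2 (-0.09), and, with no filter, region of Il10rb in wt (-0.016) and genotype by region of Tyk2 (0.0048). Leaving out libraries or animals gave, on the log2 scale, for genotype by region -0.0091 to 0.021 (Ifnar1), -0.029 to 0.025 (Ifnar2), -0.0097 to 0.10 (Ifngr2), -0.041 to 0.015 (Jak1), -0.070 to 0.0087 (Jak2), -0.19 to 1.11 (Mx1), -0.0095 to 0.82 (Mx2) and -0.10 to 0.044 (Tyk2). It gave for region in Ts66Yah -0.32 to 0.71 (Mx1) and -0.51 to 0.30 (Mx2), and in wt -0.063 to 0.058 (Il10rb) and -0.68 to 0.024 (Mx1). For the departure of Ifnar2 from 1.5-fold it gave -0.045 to 0.11 (HIP) and -0.020 to 0.079 (EC), for Ifnar1 to Ifnar2 -0.042 to 0.14 (HIP) and -0.0057 to 0.13 (EC), and for Ifngr1 to Jak1 in HIP -0.027 to 0.052. Genotype of Jak2 in HIP gave -0.053 to 0.025 and of Tyk2 in EC -0.014 to 0.11. The causes were not tested. Low counts limit what could be seen of the Mx genes and the ligands.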

Other observations

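Some other genes of the pathway were called between regions in both genotypes, where 55.5% (wt) and 58% (Ts66Yah) of all genes were called. Of 14 STAT and IRF factors, 3 were higher and 2 lower in the EC of wt, and 4 and 4 in that of Ts66Yah. Of 11 negative regulators tested, 2 were higher and 3 lower in each genotype. For these lists and the interferon-induced genes, the share called was not above that of all genes. Stat4, a STAT factor of interleukin 12 signalling, was higher in the EC by 2.98 on the log2 scale in wt and 2.44 in Ts66Yah (adjusted p = 7.65e-06 and 5.03e-06, edgeR). Over all HIP libraries of a genotype it had only 15 (wt) and 34 (Ts66Yah) counts, so these sizes rest on very low levels. Stat5b was higher by 0.78 and 0.93 and Stat6 by 0.38 and 0.45, whereas Stat5a was lower by 0.76 and 0.65. Irf3, a factor that drives interferon genes, was lower in the EC by 0.91 and 0.77. Socs3, an inhibitor of cytokine receptors, was higher by 1.30 and 1.53 and Cish by 0.39 and 0.61, while Ptpn1, Ptpn11 and Pias3 were lower in both. Il20rb, another receptor chain of the interleukin 10 family, was lower in the EC by 3.71 and 4.74, and Il10ra was higher by 0.37 and 0.38. Over all EC libraries of a genotype Il20rb had only 33 (wt) and 17 (Ts66Yah) counts. Of 27 interferon-induced genes tested, 8 were called in wt, 4 higher and 4 lower in the EC. In Ts66Yah 11 were called, 8 higher and 3 lower. Called in both were Ifih1, Ifit2, Ifit3b and B2m, higher in the EC, and Xaf1 and Ifi27, lower there. The Ts66Yah contrast contains the EC library of replicate 4, and these genes were not tested for region without it.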
